A study of Homo sapiens with 2 samples.

Results

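The 10 genes described here are feedback and output genes of the ERK kinase cascade: the phosphatases DUSP4, DUSP5 and DUSP6, the Sproutys SPRY1, SPRY2 and SPRY4, the Sprouty-related SPRED1 and SPRED2, and the transcription factors ETV4 and ETV5. They were chosen by symbol, and all 10 were found among the 22965 gene IDs of the files. The cells were H460, a human large-cell lung cancer line, grown in DMEM with 10% FBS and sampled at passage 5. In the PKP2 group PKP2, a plakophilin of the desmosome, was overexpressed from pSin-puro, and the vector group is labelled as the control. Each group had 1 library, of 20319137 counts for PKP2 and 23513304 counts for vector. Whether the cells were a clone or a pool is not given in the sources used here.

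RAS passes signals from receptor tyrosine kinases through the RAF and MEK kinases to the ERK kinases. ERK activity induces its own inhibitors: dual-specificity phosphatases that remove the activating phosphates of ERK, Sproutys that act between the receptors and RAF, and SPREDs, which bring the RAS inhibitor neurofibromin to the membrane. ETV4 and ETV5 are ETS-family transcription factors of the PEA3 group whose genes are commonly read as ERK outputs.

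Members of 1 family went different ways. DUSP6 was 2.20-fold higher in the PKP2 library and DUSP4 was 1.39-fold higher, while DUSP5 was 1.73-fold lower. SPRY1 was 2.81-fold lower on few counts. SPRY2, SPRY4, SPRED1, SPRED2, ETV4 and ETV5 differed by 1.17-fold or less. With 1 library per group no test across samples exists, so every comparison below describes these libraries, and the 95% intervals cover counting error only.

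PKP2 itself had 1330 counts in the PKP2 library and 181 in the vector library, or 66.0 CPM for PKP2 and 7.63 CPM for vector (counts relative to the scaled size of the library), in the direction of the labels. The epithelial keratin genes KRT8, KRT18 and KRT19 were abundant, at 465, 188 and 578 CPM in the PKP2 library and 697, 251 and 274 CPM in the vector library. The epithelial adhesion gene EPCAM was scarce, with 16 counts in the PKP2 library and 28 in the vector library. Of 8 markers of blood, endothelial and stromal cells 3 were measured. CD68 had 412 counts for PKP2 and 362 for vector, COL1A1 had 48 for PKP2 and 132 for vector, and PDGFRB had 208 for PKP2 and 111 for vector. The other 5 of these markers, and CDH1, were looked up, but no ID with these symbols was found among those analysed here. Any part of such cells in the results was not tested. In bulk RNA a smaller share of cells with a transcript and less of it per cell cannot be told apart. A GC trend was read over the 11610 genes averaging at least 100 counts, above 0 in both libraries and of known transcript GC content. In these, high-GC transcripts tended to lower ratios (Spearman's rho -0.61, where genes are no independent replicates). A ratio after subtraction of this trend, called GC-corrected below, is therefore given for the 10 genes and for the list genes whose ratios are printed.

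To show what lies before the starts of these genes, their promoters were searched for CGGAA and for TGANTCA, the AP-1 motif, on both strands. CGGAA is a form of the core that ETS factors such as ETV4 and ETV5 bind, and other forms were not searched. RefSeq windows of 250 bases before the gene start (GRCh38.p14) were at hand for 6 of the 10 genes, with 10 windows in all. For DUSP4, DUSP5, ETV4 and ETV5 none was at hand, and they were not searched. DUSP6, the gene with the highest ratio, had 3 matches to CGGAA in its window, and SPRY1, with the lowest, had 1 in the window of its second listed start. SPRY2, which differed little, had 2 in 1 of its 3 windows. No match to CGGAA lay in the windows of SPRY4, SPRED1 and SPRED2, and none to TGANTCA in any of the 10. Of 35116 such windows of all genes, 30.3% held CGGAA, 3.08% held it at least 3 times and 6.57% held TGANTCA. The matches are shown with 12 bases on each side, on the gene's strand from 5′ to 3′, with the motif in capitals (TTCCG where it reads CGGAA on the other strand). A match is a description of the letters and not a binding site. The first and second DUSP6 stretches overlap.
DUSP6, chr12:89352640-89352668, minus strand, 155 bases before the start: gcttatccggagCGGAAattcctttccgt
DUSP6, chr12:89352629-89352657, minus strand, 144 bases before the start: gcggaaattcctTTCCGtttttgtgaatg
DUSP6, chr12:89352546-89352574, minus strand, 61 bases before the start: ggcaacagccccTTCCGcagcacgctcat
SPRY1, chr4:123398308-123398336, plus strand, 66 bases before the second listed start: gccctccgcagcCGGAAgggggccgcggg
SPRY2, chr13:80341318-80341346, minus strand, 208 bases before the first listed start: acaactgctctgTTCCGcctcggatccac
SPRY2, chr13:80341251-80341279, minus strand, 141 bases before the first listed start: ccctgcctcctcCGGAAaggcgagggcgc

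Among the phosphatases, DUSP6 (ENSG00000139318, chromosome 12) encodes a cytoplasmic enzyme selective for ERK. It had 1244 counts in the PKP2 library and 667 in the vector library, or 61.8 CPM for PKP2 and 28.1 CPM for vector. The log2 ratio was 1.14 (interval 1.00 to 1.27), and 1.09 GC-corrected. The lower end of the interval thus sits at the 2-fold threshold itself. Among the 15991 genes that averaged 10 or more counts, 293 had a higher ratio than DUSP6. In GENCODE 29, DUSP6 transcripts share 38.5% of their 31-base stretches with another gene of the files, the antisense gene ENSG00000274021, which held only 2 counts in the PKP2 library and 1 in the vector library. Summed with it, the ratio of DUSP6 was again 1.14.

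DUSP4 (ENSG00000120875, chromosome 8) encodes a nuclear phosphatase that acts on ERK and on other MAP kinases. It was by far the most counted of the 10 genes, with 9355 counts in the PKP2 library and 7937 in the vector library, or 465 CPM for PKP2 and 335 CPM for vector. Its ratio was 0.47 (interval 0.43 to 0.52), and 0.53 with the GC correction, just outside that interval. DUSP5 (ENSG00000138166, chromosome 10) encodes a nuclear phosphatase selective for ERK and went the other way, with 181 counts in the PKP2 library and 368 in the vector library, or 8.99 CPM for PKP2 and 15.5 CPM for vector. Its ratio was -0.79 (interval -1.05 to -0.53), and -0.61 GC-corrected, and 1201 of the 15991 genes had a lower one.

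Differences between members of 1 family do not depend on how the libraries are scaled, since both genes are read in the same libraries. DUSP6 minus DUSP5 was 1.92 on the log2 scale (interval 1.63 to 2.22), and 1.70 after the GC correction. DUSP4 minus DUSP5 was 1.26 (interval 1.00 to 1.53), and DUSP6 minus DUSP4 was 0.66 (interval 0.52 to 0.81). All 3 phosphatases thus stood apart from each other beyond counting error. Per kilobase of principal transcript, DUSP6 stood at 14.04 CPM per kb and DUSP5 at 3.52 in the PKP2 library, whereas in the vector library DUSP6 stood at 6.39 and DUSP5 at 6.07, with overlapping intervals. Of the summed level per kilobase of the 3 phosphatases, DUSP6 made up 13.8% in the PKP2 library and 8.77% in the vector library. DUSP5 made up 3.46% in the PKP2 library and 8.32% in the vector library. The share of DUSP4 was 82.7% in the PKP2 library and 82.9% in the vector library. Their counts together came to 10780 for PKP2 and 8972 for vector, a ratio of 0.50 (interval 0.46 to 0.54), most of it from DUSP4.

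**Figure D1:**
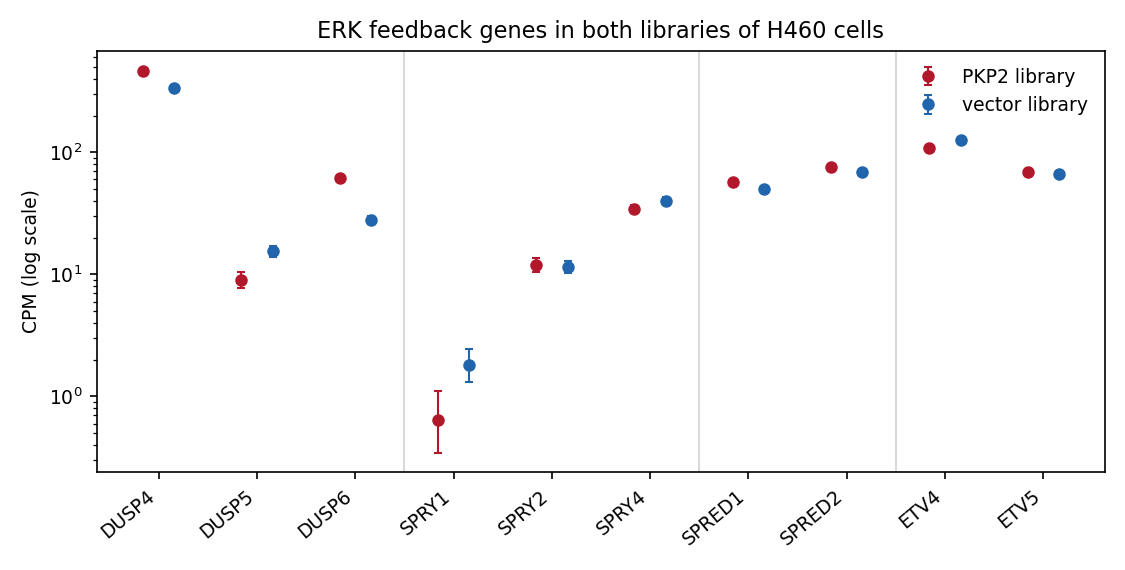
Level of each of the 10 genes in CPM (log axis) in the PKP2 library (red, left) and the vector library (blue, right), with exact Poisson 95% counting intervals, where they are wider than the point. DUSP6 stands at 61.8 CPM in the PKP2 library and 28.1 CPM in the vector library, DUSP5 is lower in the PKP2 library, and SPRY1 is near the bottom of the axis in both.

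The Sproutys are inhibitors that ERK-pathway activity induces and that act between growth factor receptors and RAF. SPRY1 (ENSG00000164056, chromosome 4) had 13 counts in the PKP2 library and 43 in the vector library, or 0.646 CPM for PKP2 and 1.81 CPM for vector. Its ratio was -1.49 with a wide interval, -2.51 to -0.57, and -1.58 GC-corrected, and 305 of the 15991 genes had a lower one. With 1 CPM added to both libraries the ratio was -0.77, short of 2-fold. SPRY2 (ENSG00000136158, chromosome 13) had 240 counts in the PKP2 library and 273 in the vector library, or 11.9 CPM for PKP2 and 11.5 CPM for vector. That is a ratio of 0.05 (0.04 GC-corrected) whose interval of -0.21 to 0.31 takes in 0. SPRY4 (ENSG00000187678, chromosome 5), the most abundant Sprouty per kilobase, had 693 counts in the PKP2 library and 956 in the vector library, or 34.4 CPM for PKP2 and 40.3 CPM for vector. Its ratio of -0.23 (interval -0.37 to -0.08) came to -0.04 with the GC correction, which lies outside that interval.

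Within the family SPRY2 minus SPRY1 was 1.54 (interval 0.57 to 2.59), and SPRY4 minus SPRY1 was 1.26 (interval 0.33 to 2.29). SPRY2 minus SPRY4 was 0.28 with an interval of -0.02 to 0.57 that takes in 0. SPRY1 thus stood apart from both of its relatives beyond counting error, but at a level so low that it took up 1.30% of the Sprouty level per kilobase in the PKP2 library and 3.18% in the vector library. SPRY4 made up 75.7% in the PKP2 library and 77.4% in the vector library. The 3 genes together had 946 counts for PKP2 and 1272 for vector, a ratio of -0.19 (interval -0.31 to -0.07). Most of these counts were of SPRY4, whose own ratio was -0.04 GC-corrected, and a GC-corrected sum was not computed. Among the remaining paralogs SPRY3 had 391 counts for PKP2 and 695 for vector, a ratio of -0.59 (interval -0.78 to -0.41) and of -0.76 GC-corrected.

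The SPREDs hold down RAS at the membrane through neurofibromin. SPRED1 (ENSG00000166068, chromosome 15) had 1148 counts in the PKP2 library and 1199 in the vector library, or 57.0 CPM for PKP2 and 50.5 CPM for vector, a ratio of 0.17 (interval 0.06 to 0.29). Its transcript has the lowest GC content of the 10 genes, 38.9%, and GC-corrected its ratio was -0.05, the opposite sign. SPRED2 (ENSG00000198369, chromosome 2) had 1516 counts in the PKP2 library and 1647 in the vector library, or 75.3 CPM for PKP2 and 69.4 CPM for vector. Its ratio was 0.12 (interval 0.02 to 0.22), and 0.11 GC-corrected. SPRED1 minus SPRED2 was 0.06 with an interval of -0.10 to 0.21, so before the GC correction no difference beyond counting error was seen. Between the GC-corrected ratios it was -0.16, of the opposite sign and outside that interval. SPRED3 was counted only 21 times for PKP2 and 20 times for vector. Neurofibromin itself is encoded by NF1, whose ratio was 0.13 (interval 0.06 to 0.20), and -0.03 GC-corrected.

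ETV4 (ENSG00000175832, chromosome 17) had 2201 counts in the PKP2 library and 2992 in the vector library, or 109 CPM for PKP2 and 126 CPM for vector. Its ratio was -0.21 (interval -0.29 to -0.13). ETV4 has the highest transcript GC content of the 10 genes, 60.8%, and the GC-corrected ratio was 0.13, again the opposite sign. ETV5 (ENSG00000244405, chromosome 3) had 1390 counts in the PKP2 library and 1582 in the vector library, or 69.0 CPM for PKP2 and 66.7 CPM for vector, and its ratio of 0.05 (interval -0.06 to 0.15) takes in 0. GC-corrected it was 0.04. ETV5 minus ETV4 was 0.26 (interval 0.12 to 0.39), but -0.09 between the GC-corrected ratios. The direction for ETV4, and its order against ETV5, thus turned with that correction. Exons of ETV4 overlap those of DHX8 on the other strand (1464 counts for PKP2 and 2066 for vector), and exons of ETV5 overlap those of DGKG on the same strand (690 for PKP2 and 717 for vector). Summed with these genes the ratios were -0.23 for ETV4 and 0.09 for ETV5. ETV1, the third gene of the PEA3 group, had 3085 counts for PKP2 and 3036 for vector, a ratio of 0.26 (interval 0.19 to 0.33) and of 0.02 GC-corrected.

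**Figure D2:**
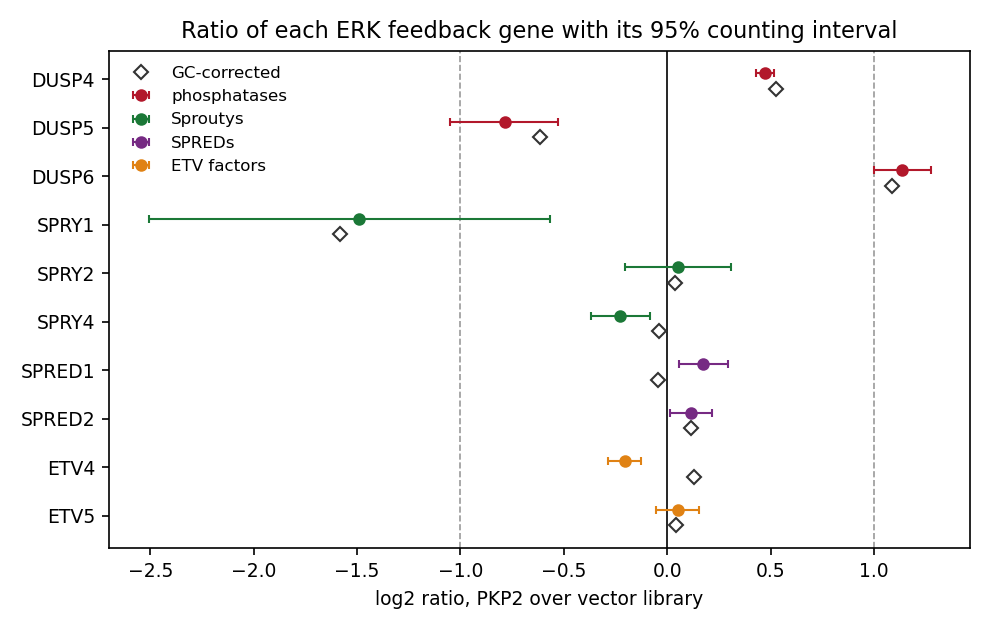
Log2 ratio of the PKP2 over the vector library for each of the 10 genes, coloured by family, with 95% counting intervals, and the GC-corrected ratio as an open diamond. Dashed lines mark 2-fold. DUSP6 at 1.14 and SPRY1 at -1.49 lie beyond the lines, and the diamonds of SPRED1 and ETV4 lie on the other side of 0 from their points.

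Seen together, 1 of the 10 genes, DUSP6, was at least 2-fold higher, beside 2.47% of those 15991 genes. At least 2-fold lower was also 1 of the 10, SPRY1, beside 4.61% of all genes. GC-corrected, the same pair of genes stood past 2-fold, beside 2.35% of all genes on the higher side and 3.49% on the lower. With so few members these counts set the group apart in neither direction. The counting interval lay above 0 for 4 of the 10 genes, DUSP4, DUSP6, SPRED1 and SPRED2, beside 25.9% of all genes. It lay below 0 for 4, DUSP5, SPRY1, SPRY4 and ETV4, beside 28.8%. For SPRY2 and ETV5 it took in 0. Whether an interval leaves out 0 depends on depth, and these shares are over genes of every depth from a mean of 10 counts. A share at the depth of the 10 genes was not computed. The median ratio of the 10 was 0.05, and that of all 15991 genes was -0.03. GC-corrected, the medians were 0.04 for the 10 genes and -0.01 for all genes.

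**Figure D3:**
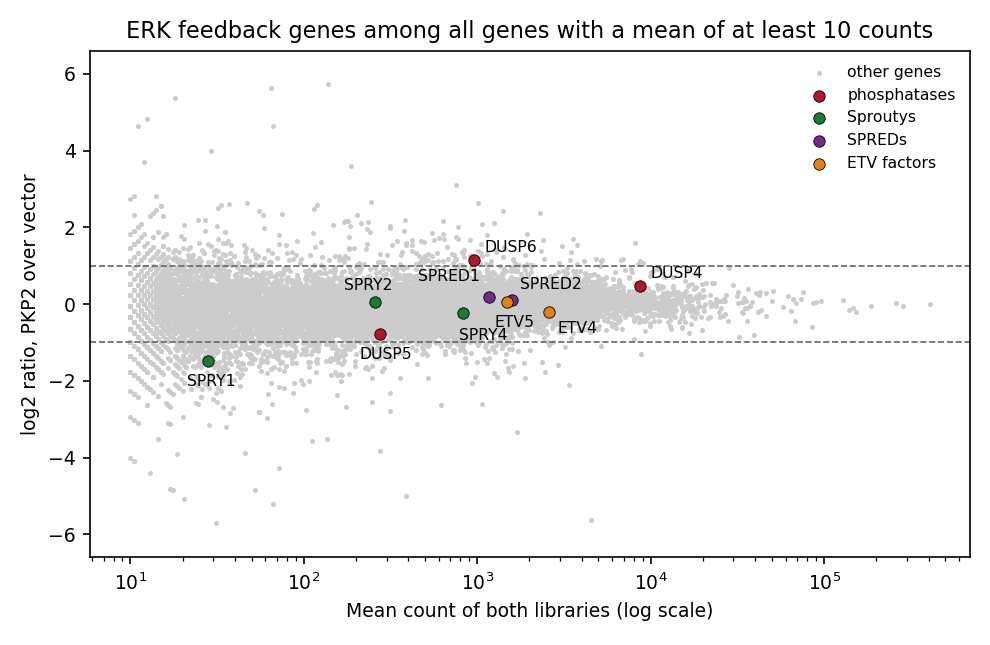
Log2 ratio of the PKP2 over the vector library against the mean count of both libraries (log axis), with the 10 genes coloured by family over the other genes averaging 10 or more counts (grey; genes at 0 in 1 library are not drawn). Dashed lines mark 2-fold. SPRY1 sits among thinly counted genes where the grey points spread widely, and DUSP6 sits at a mean of 956 counts where few grey points pass 2-fold.

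The same fold carried different weight at different depths. Of the 11637 genes averaging 100 or more counts, among them 9 of the 10, 1.38% passed 2-fold upward and 1.8% downward. DUSP6 was 1 of these higher genes, and SPRY1, with a mean of 28 counts, was below that depth.

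In level per kilobase of principal transcript, the order of the 10 genes was nearly the same in both libraries. In the PKP2 library DUSP4 stood first at 83.9 CPM per kb and ETV4 second at 45.0. SPRED2 at 18.4 and ETV5 at 16.8 followed with overlapping intervals, and then SPRY4 at 14.5 and DUSP6 at 14.04, also overlapping. SPRED1 stood at 7.33, SPRY2 at 4.40 and DUSP5 at 3.52, the last pair overlapping, and SPRY1 came last at 0.248. In the vector library DUSP4 stood at 60.4 and ETV4 at 51.9, nearer to each other than in the PKP2 library. SPRED2, SPRY4 and ETV5, between 16.2 and 16.9, each overlapped the next in order, and so did SPRED1, DUSP6 and DUSP5, between 6.07 and 6.50. SPRY2 stood at 4.25 and SPRY1 at 0.695. DUSP4 lay above 95.3% of measured genes in the PKP2 library and above 93.0% in the vector library, and SPRY1 above 4.92% in the PKP2 library and 13.1% in the vector library.

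Of 9 other MAP kinase phosphatases measured, 2 passed 2-fold downward and none upward, beside 4.61% and 2.47% of all genes. With 5 CPM added to both libraries none of the 9 passed it. Their median ratio was -0.35. The ratio lay below 0 for 8 of the 9, beside 8428 of all 15991 genes. The counting interval lay below 0 for 5, beside 28.8% of all genes, whatever their depth. It lay above 0 for 1, beside 25.9%, and took in 0 for 3. After the GC correction none was past 2-fold and the median was -0.12. By then 7 of 9 were below 0, beside 8123 of the 15893 genes with a known GC content. DUSP9, a cytoplasmic ERK phosphatase like DUSP6, had 62 counts for PKP2 and 205 for vector, a ratio of -1.49 (interval -1.92 to -1.07) and of -0.95 GC-corrected. DUSP2, a nuclear phosphatase, had 57 counts for PKP2 and 181 for vector, a ratio of -1.43, and -0.96 GC-corrected. DUSP10, which acts on p38 and JNK, was at -0.67 and at -0.74 GC-corrected. DUSP1, an immediate-early nuclear phosphatase, was the exception at 0.64 (interval 0.51 to 0.77), and 0.79 GC-corrected, with 1109 counts for PKP2 and 838 for vector. Higher counts in the PKP2 library relative to depth were thus shared by DUSP1, DUSP4 and DUSP6 and by no other of the 12 phosphatases, until the GC correction also put DUSP8 above 0, at 0.07.

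Upstream of the feedback genes, the RAS-ERK cascade had 25 of 26 measured genes within 2-fold, beside 14859 of all 15991 genes, and a median ratio of 0.02. The counting interval lay above 0 for 11 of the 26, beside 25.9% of all genes, whatever their depth. It lay below 0 for 11, beside 28.8%, and took in 0 for 4. The cascade gene past 2-fold was FRS2, the docking adaptor that couples FGF receptors to RAS. It had 396 counts for PKP2 and 1060 for vector, a ratio of -1.18 (interval -1.35 to -1.02) and of -1.45 GC-corrected. The ribosomal S6 kinase gene RPS6KA2 was at -0.99 (-0.86 GC-corrected), on 49 counts for PKP2 and 115 for vector. MAP2K2, which encodes a MEK kinase, was at -0.71 but at -0.17 GC-corrected. MRAS, a RAS relative, was at 0.61 (0.63 GC-corrected), on 62 counts for PKP2 and 48 for vector. Of 15 inhibitors of RAS and of receptors, 14 lay within 2-fold (median -0.05), beside 14859 of all 15991 genes. RASAL1, a RAS GTPase-activating protein, was at -1.05 and at -0.70 GC-corrected, and none of the 15 was past 2-fold after the GC correction or with 1 CPM added. The RAS degradation adaptor LZTR1 was at -0.67 and the GTPase-activating protein DAB2IP at -0.47, but GC-corrected they were at -0.32 and -0.13 in that order.

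Among 15 measured receptor tyrosine kinases 1 was at least 2-fold higher and 3 lower, beside 2.47% and 4.61% of all genes. Their median was 0.08. After the GC correction 1 of the 15 was higher and 2 lower, beside 2.35% and 3.49% of all genes. With 1 CPM added to both libraries none was higher and 1 lower, and with 5 CPM added none passed 2-fold in either direction. PDGFRB was at 1.14 (208 counts for PKP2 and 111 for vector), AXL at -1.23 (64 for PKP2 and 177 for vector), FGFR3 at -1.22 (32 for PKP2 and 88 for vector) and NTRK2 at -1.86 (11 for PKP2 and 47 for vector). GC-corrected, PDGFRB was at 1.37, AXL at -1.11, FGFR3 at -0.84 and NTRK2 at -1.98. Of 17 other ETS factors 1 was at least 2-fold lower, beside 4.61% of all genes. It was ETV7, at -2.22 on only 4 counts for PKP2 and 22 for vector. The other 16 lay within 2-fold, beside 14859 of all 15991 genes, and the median of the 17 was -0.10. After the GC correction 2 of the 17 were lower, ETV7 at -1.94 and EHF at -1.01, beside 3.49% of all genes. With 1 CPM added none of the 17 was. The ETS repressor ERF, which ERK phosphorylation drives out of the nucleus, was at -0.72 and at -0.25 GC-corrected. The epithelial ETS genes EHF (-0.87) and ELF3 (-0.70, and -0.53 GC-corrected) had under 30 counts in each library.

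The other ERK output genes did not share 1 direction. Of 30 measured, 2 passed 2-fold upward and none downward, beside 2.47% and 4.61% of all genes. Of the 30 ratios 18 lay below 0 and 12 above, beside 8428 and 7563 of all 15991 genes, and their median was -0.14. GC-corrected, 3 of the 30 were higher, beside 2.35% of all genes. By then 17 lay above 0, beside 7770 of the 15893 genes with a known GC content. The GC-corrected median was 0.12, so the sign of the median turned. The ephrin receptor EPHA4 was at 1.34 and the immediate-early gene IER2 at 1.08, while FOSB (0.97) and EREG (0.85) had under 30 counts in each library. GC-corrected, EPHA4 was at 1.25, IER2 at 1.46, FOSB at 1.20 and EREG at 0.57. With 5 CPM added 1 of the 30 passed 2-fold upward. In the MAPK pathway activity score, a list of 10 transcripts known as a readout of ERK signalling, 6 genes are among those described here. Its other 4 are all among the 30 output genes above, so the score adds no further gene. They had ratios of 1.34 for EPHA4, 0.43 for PHLDA1, 0.11 for CCND1 and -0.18 for EPHA2. GC-corrected, PHLDA1 was at 0.33 and CCND1 at 0.14, and EPHA2 turned to 0.14. Of the 10 score genes 7 had a ratio above 0, beside 7563 of all 15991 genes. After the GC correction 9 did, beside 7770 of those 15893. The counting interval lay above 0 for 5 of the 10, beside 25.9% of all genes, whatever their depth. It lay below 0 for 3, beside 28.8%, and took in 0 for 2. Of the 10, 2 were at least 2-fold higher, beside 2.47% of all genes, and 8 within 2-fold. The median was 0.08, and 0.14 with the GC correction.

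**Figure D4:**
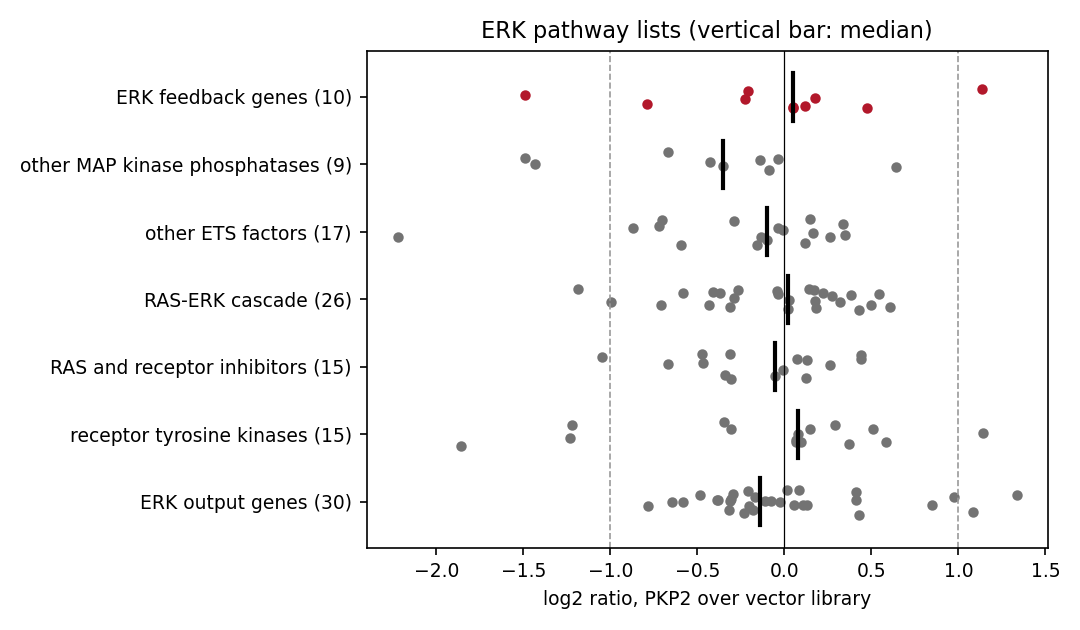
Log2 ratio of the PKP2 over the vector library for the 10 ERK feedback genes (red) and for the measured genes of 6 other lists (grey, 1 point a gene, with the number of genes in brackets); black bars are medians and dashed lines mark 2-fold. The 10 genes spread from -1.49 to 1.14 around a median of 0.05, and the other MAP kinase phosphatases have a median of -0.35.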

How the data were processed

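Total RNA of H460 cells gave 1 Illumina TruSeq library per group, per the labels' protocols. The submitters' processing notes name Bowtie 0.12.2, GRCh37 and hg19. How reads were counted, with which annotation and whether by strand, is not given in the sources used here, so reads of overlapping or antisense genes cannot be told apart. The deposited values are estimated counts per Ensembl ID, not normalized, per the file headers. They are whole numbers except in 1 damaged row, and needed no rounding. In each file 2 rows were left out, that one and a row with no value, so their share of counts cannot be given.

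Symbols came from a table of gene names (22579 of 22965 IDs). CPM used library totals times the TMM factors of edgeR 4.0.16 under R 4.3.3, which were 0.991 (PKP2) and 1.01 (vector). Ratios had no pseudocount and exact binomial (Clopper-Pearson) 95% intervals, and differences between genes had exact conditional odds-ratio intervals. Both cover counting error only, and not the spread between cultures. Reads carried no molecular identifiers, so repeated copies of 1 molecule could not be told apart. The edgeR quasi-likelihood test was not run, because 1 library per group gives no spread. A gene's GC content and length were taken from its principal GENCODE 29 transcript, matched by ID since that build differs. The GC trend was fitted by lowess (fraction 0.3, statsmodels 0.14.6) where the mean count reached 100. Steps were checked on simulated counts.

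The genes and lists were chosen with earlier results of these data known. Named from each list were up to 4 measured genes (mean of 10 counts or more) with ratios farthest from 0. NF1, CCND1, EPHA2 and DUSP8 lie outside this rule and were named after their values were seen. Not every gene it selects is reported here. Alternatives were total-count, DESeq2 1.42.0 and upper-quartile scaling, added CPM, other count minimums and folds, both GC corrections, the mean in place of the median, and sums with overlapping genes. Python 3.11.15 was used with SciPy 1.17.1, NumPy 2.4.6, matplotlib 3.10.9 and pandas 2.3.3.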

Additional observations from a re-analysis of the deposited data

How the results depend on the processing

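No paired analysis was possible because each group has 1 library. Under the 3 other scalings, total counts, DESeq2 size factors and upper-quartile factors, the ratios of the 10 genes stayed within their counting intervals, as did the sums by family. The ratio of DUSP6 ran from 1.01 with 5 CPM added to 1.16 with upper-quartile scaling, and DUSP6 fell short only of a 3-fold threshold, where 0 of the 10 genes were higher. The lower call of SPRY1 rested on few counts: 0 of the 10 genes were at least 2-fold lower with 1 or 5 CPM added, with a minimum mean of 50 counts or at 3-fold, and 2 at 1.5-fold, where DUSP5 joined it. With 5 CPM added its ratio was -0.27. A pair of corrections turned signs: that for GC content gave 0.13 for ETV4 and -0.047 for SPRED1, and that against the median of 100 genes of like GC content and length gave 0.068 for ETV4 and -0.097 for SPRED1. The cause was not tested. The median of the 10 genes ran from 0.01 to 0.07, and their mean was -0.07. Of all genes, 231, 180 and 106 were at least 2-fold higher with 0.5, 1 and 5 CPM added, and 393, 249 and 81 lower. Without a count minimum 1858 were higher and 2800 lower, against 195 and 304 where the mean had to reach 50 counts. At 1.5-fold 1098 were higher and 2060 lower, and at 3-fold 114 were higher and 251 lower.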
